A study of Mus musculus with 4 samples.

Results

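Arterial endothelial cells (ECs) of the inflamed spinal cord (SC) were taken as barcodes with at least 2000 unique molecular identifiers (UMIs, 1 per counted transcript) and under 10% mitochondrial UMIs. They had to carry at least 5 UMIs of *Cldn5*, *Cdh5*, *Egfl7*, and *Esam* together, at most 2 of the leukocyte genes *Ptprc*, *Laptm5*, and *Coro1a*, and at most 1 of the mural cell genes *Pdgfrb*, *Kcnj8*, and *Abcc9*. The arterial genes *Bmx*, *Sema3g*, *Gkn3*, and *Hey1* had to sum to at least 3 UMIs, and the venous genes *Ackr1* and *Slc38a5* to at most 1. By these limits 1074 of 12338 endothelial barcodes were arterial, out of 26525 barcodes past the UMI and mitochondrial limits.

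The cells were DAPI-negative CD45+ and CD31+ cells, sorted in equal numbers from the SCs of perfused mice with experimental autoimmune encephalomyelitis (EAE), and each condition was 1 droplet-based single-cell library. In all 4 libraries EAE was induced with MOG35-55 peptide in CFA followed by pertussis toxin. The mIgG1 and Ang2 Ab libraries came from wild-type C57Bl/6JOlaHsd mice of 15 weeks, given an isotype control or an angiopoietin 2–blocking antibody from immunization on and taken at 14 days post immunization (dpi). The Ctrl and *EC-Ang2* libraries came from C57Bl/6JCrl mice of 12 to 14 weeks at 12 dpi, which were single transgenic controls and *VE-cadherin-tTA*;*Tet-OS-Ang2* double transgenics. The paper, however, gives the background of both transgenic lines as C57BL/6J and does not name C57Bl/6JCrl. In the double transgenics the VE-cadherin promoter drives Ang2 in ECs as a whole, not in arteries alone, and each dose of pertussis toxin was 200 ng in this pair against 400 ng in the antibody pair. How many mice each library pooled is not given in the sources used here. With 1 library per condition no comparison was tested, and intervals, all 95%, cover counting error only.

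Arterial ECs line the vessels that carry blood from the heart under high pressure and pulsatile flow. They are specified by Notch signaling, in which ligands such as *Dll4* and *Jag1* activate Notch receptors that induce transcription factors of the HEY family, and they adhere to an elastic wall held by smooth muscle. In the CNS, leukocytes leave the blood mainly through postcapillary venules, and arterial ECs are known to carry fewer of the adhesion molecules involved. Ang2 is an EC-derived ligand of the receptor tyrosine kinase Tie2, encoded by *Tek*.

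The arterial share of ECs was similar within each pair. Arterial ECs numbered 246 of 2934 ECs in mIgG1 (8.38%, interval 7.41 to 9.45) and 273 of 3470 in Ang2 Ab (7.87%, 6.99 to 8.81). They numbered 338 of 3533 in Ctrl (9.57%, 8.62 to 10.6) and 217 of 2401 in *EC-Ang2* (9.04%, 7.92 to 10.3). The ratio of the treated to the control share was 0.938 for Ang2 blockade and 0.945 for Ang2 overexpression, and the intervals of both pairs overlapped. After each barcode was thinned to 2000 UMIs, the shares were 4.05%, 4.22%, 4.75%, and 3.72% in mIgG1, Ang2 Ab, Ctrl, and *EC-Ang2*, and in the antibody pair the order was then the opposite. Arterial ECs had a median of 4603.5, 3861, 4747.5, and 6054 UMIs, close to the 4747.5, 3615, 4225, and 6138.5 of the other ECs of the same libraries. Values for the 4 libraries follow this order throughout. Red cell transcripts were highest in Ctrl and *EC-Ang2*, but in other ECs Ang2 Ab was nearer to *EC-Ang2* than to mIgG1. They rest on few arterial ECs, since *Hbb-bs* was present in 0.407%, 0.366%, 6.80%, and 3.23% of them after thinning. Erythrocyte genes, of which *Hbb-bs* was the most abundant, summed to 0.773, 59.1, 9568, and 2665 CPM in arterial ECs and to 2.20, 1137, 8030, and 1758 CPM in other ECs, where CPM are the UMIs of genes per 1000000 UMIs of all cells of the class in a library.

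**Figure D1:**
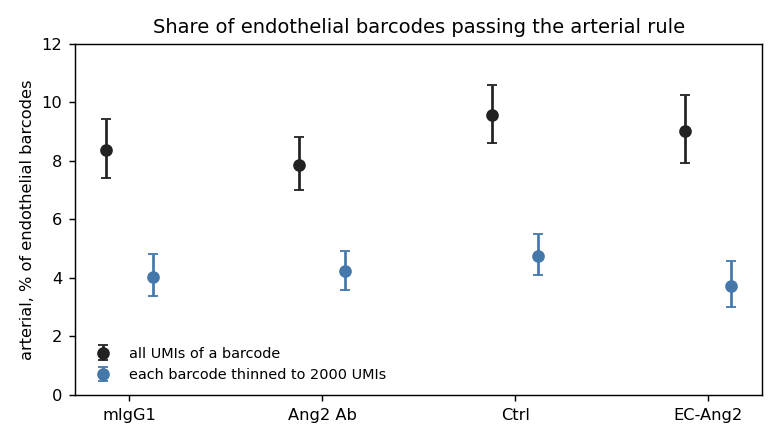
Share of endothelial barcodes passing the arterial limits, in percent (y axis), in each of the 4 libraries (x axis), from all UMIs of a barcode (black) and after thinning to 2000 UMIs (blue); bars are exact binomial 95% intervals. The unthinned shares lie between 7.87% and 9.57% and the thinned ones between 3.72% and 4.75%.

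Of the arterial ECs, 303 (28.2%) stood at the limit of 3 arterial UMIs, and 560 further ECs stood just outside it with 2. The median arterial sum was 5, 4, 5, and 4 UMIs, and the highest was 124. *Ackr1* and *Slc38a5* were at 0 in 828 arterial ECs and at 1 UMI in 246, while 101 barcodes with an arterial sum of 3 or more were left out with 2 venous UMIs and 242 with more than 2. The leukocyte limit kept out 80 barcodes that met all other limits and the mural limit 41. One arterial barcode sequence was shared between libraries (Ctrl and *EC-Ang2*), and 28 were also present in another library as a barcode of at least 2000 UMIs of any cell type.

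The genes that chose the cells differed in how they made up the sum. *Bmx* (chromosome X, 164192842 to 164258193, GRCm38), a cytoplasmic tyrosine kinase of arterial endothelium and endocardium, had 370, 461, 370, and 353 CPM. *Sema3g* (chromosome 14, 31217860 to 31230352), a secreted semaphorin, had 252, 283, 214, and 252 CPM. *Hey1* (chromosome 3, 8663359 to 8667256), a Notch-induced transcriptional repressor, had 226, 222, 227, and 158 CPM. *Gkn3* (chromosome 6, 87383256 to 87388935), a gastrokine family gene known as an arterial marker of the mouse brain, had 414, 322, 861, and 130 CPM. *Gkn3* was thus the gene of the 4 that differed most between libraries, highest in Ctrl and lowest in *EC-Ang2*. Its log2 ratio was −0.36 (interval −0.55 to −0.17) for Ang2 Ab against mIgG1 and −2.73 (−2.95 to −2.51) for *EC-Ang2* against Ctrl, given as a description because *Gkn3* took part in choosing the cells.

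A *Gkn3* UMI was present in 44.7%, 35.2%, 48.8%, and 23% of arterial ECs. After thinning to 2000 UMIs the shares were 30.9%, 27.1%, 38.5%, and 15.7%, against 1.75%, 0.938%, 1.19%, and 1.47% of the other ECs. The *Gkn3* share of venous-gene ECs, which have at least 3 venous UMIs and at most 2 arterial ones, was 2.90%, 0.921%, 1.76%, and 4.62% at median depths of 6333, 4678.5, 5276, and 9013 UMIs. *Bmx* was present in 78.9%, 79.1%, 73.4%, and 82.5% of arterial ECs, so that the *Gkn3* share varied more between libraries than the *Bmx* share did. All 4 genes were present together in 11.4%, 8.42%, 14.8%, and 9.68% of arterial ECs, and a single one in 9.76%, 12.5%, 13.9%, and 16.6%. When the cells were chosen without 1 of the genes, that gene was still higher in the cells chosen by the other 3. The mean log2 ratio to the remaining ECs was 2.76 ± 0.27 for *Bmx*, 2.93 ± 0.22 for *Sema3g*, 3.78 ± 1.00 for *Gkn3*, and 2.11 ± 0.48 for *Hey1* (SD, n = 4 libraries).

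The arterial ECs were then described by 20 further arterial genes that did not choose the cells. Of these, 17 were at least 2-fold higher in arterial than in other ECs in all 4 libraries and none was 2-fold lower. Their median log2 ratio was 2.77, against 0.07 over all 12230 genes counted. Over all genes, 280 (2.29%) were 2-fold higher and 139 (1.14%) 2-fold lower in every library. These counts describe cells chosen on their own transcripts and are no test. The list of arterial genes was also drawn up with earlier results of these data known. It includes *Stmn2* and *Vegfc*, which the study used as arterial markers in the same libraries, so that it cannot check the label independently. The 3 arterial genes that did not reach 2-fold everywhere were the Notch ligand *Dll4* (mean log2 ratio 0.92 ± 0.29), the chemokine *Cxcl12* (0.92 ± 0.40), and the tetraspanin-like *Tm4sf1* (0.70 ± 0.48). The study used *Cxcl12* as a capillary-arterial marker. It had 713, 773, 1058, and 413 CPM in arterial ECs. In ECs with at most 1 venous UMI and an arterial sum of 0 it had 913, 767, 1223, and 347 CPM, more than arterial ECs in mIgG1 and Ctrl. Its mean was 1031 CPM at a sum of 3 and 399 CPM at 10 or more.

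Several secreted and matrix genes were far higher in arterial ECs. *Cytl1*, a small secreted cytokine-like protein, had 87.3, 108, 115, and 202 CPM in arterial ECs against 2.37, 2.05, 1.85, and 0.806 CPM in other ECs (mean log2 ratio 6.21 ± 1.21, n = 4). After thinning, *Cytl1* was present in only 5.28%, 6.96%, 6.51%, and 4.61% of arterial ECs, so that its level rests on few cells. In other ECs it was present in 0.186%, 0.282%, 0.125%, and 0.183%. *Fbln5*, which organizes elastic fibers, had 178, 274, 181, and 281 CPM against 4.46, 7.27, 3.22, and 5.21 CPM (5.53 ± 0.29). *Eln*, the elastin gene, had 101, 201, 197, and 156 CPM against 6.94, 15.0, 10.8, and 15.0 CPM (3.79 ± 0.33). *Mgp* (chromosome 6, 136872435 to 136875823), an inhibitor of calcification and of BMP signaling, had 2696, 5457, 5112, and 6889 CPM against 358, 695, 477, and 732 CPM (3.14 ± 0.24). In no library did the level of these genes in other ECs reach that of the lowest arterial library. Of the 16 genes of a vessel wall matrix list, 6 were 2-fold higher in all libraries and none lower, and the list median was 0.69. That median was 0.03 when the Ang2 Ab library was left out. The other members past the fold included *Fbln2* (4.22 ± 0.30) and *Lox*, which cross-links elastin. *Lox* had 3.86, 10.1, 4.79, and 9.96 CPM in arterial ECs (5, 12, 9, and 15 UMIs) against 0, 0.529, 0, and 0.161 CPM in other ECs.

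Of 11 flow and vascular tone genes, 3 were 2-fold higher in all libraries, namely *Gja5*, *Gja4*, and *Edn1*, and none was lower (median 0.87). The gap junction genes *Gja5* and *Gja4* had mean log2 ratios of 5.35 ± 0.97 and 3.82 ± 0.28. *Gja5* had 17.8, 16.0, 19.1, and 24.6 CPM in arterial ECs and at most 1.06 CPM in other ECs, whereas *Gja4* (chromosome 4, 127311421 to 127314039) had 279, 151, 136, and 263 CPM against 18.9, 13.8, 7.74, and 18.7 CPM. *Edn1*, the precursor of the vasoconstrictor endothelin 1, was higher by 1.84 ± 0.40. *Klf2*, a transcription factor induced by laminar flow, had 4274, 4016, 4234, and 2620 CPM against 2412, 2589, 3506, and 1643 CPM, a mean log2 ratio of 0.60 ± 0.23 that stayed under 2-fold.

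Single genes of the ephrin, VEGF, and TGF-beta pathways were also higher, namely the arterial ephrin *Efnb2* (2.41 ± 0.26), the lymphangiogenic growth factor *Vegfc* (3.95 ± 0.57), and the inhibitory SMAD *Smad6* (2.23 ± 0.17). The netrin receptor *Unc5b* (1.94 ± 0.28) and the transcription factor *Sox17* (1.41 ± 0.21) were higher as well. As a list, VEGF and angiogenesis genes were not, since of 12 counted only *Vegfc* was 2-fold higher in all libraries and 3 were lower (median −0.09). The lower genes were the semaphorin and VEGF receptor gene *Nrp2* (−2.99 ± 0.83), the apelin gene *Apln* (0, 0.844, 0, and 15.3 CPM against 9.49, 14.1, 4.17, and 36.9 CPM), and its receptor gene *Aplnr* (at most 0.664 CPM against at least 8.99 CPM). Of 12 TGF-beta and BMP genes, *Smad6* and *Tgfb2* (1.30 ± 0.35) were higher and none was lower (median 0.69). *Stmn2*, a microtubule regulator, had 592, 405, 478, and 279 CPM (3.43 ± 0.20), and *Alpl*, tissue-nonspecific alkaline phosphatase, 206, 168, 257, and 63.8 CPM (3.33 ± 0.15). Both were lowest in *EC-Ang2* and yet far above the other ECs of that library. Of 16 counted Notch pathway genes, only *Notch3* (2.13 ± 0.86, from 15, 9, 9, and 5 UMIs), *Jag1* (1.35 ± 0.22), and *Jag2* (1.31 ± 0.15) passed 2-fold in every library. The Notch target *Hes1* did not differ that way, with 580, 601, 745, and 608 CPM against 764, 668, 740, and 734 CPM (−0.20 ± 0.17).

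**Figure D2:**
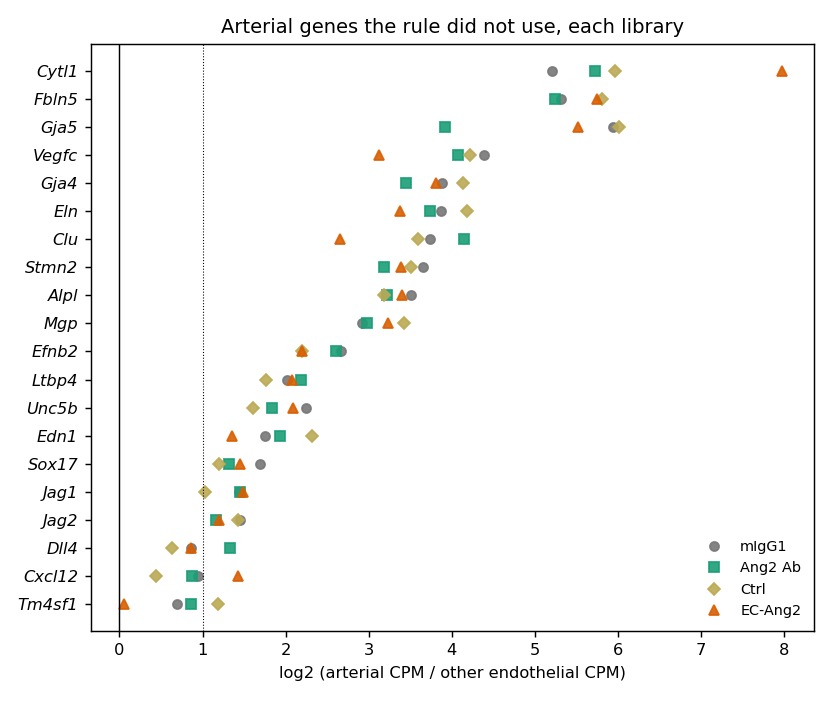
Log2 ratio of the CPM in arterial to that in other ECs (x axis) for the 20 genes of the arterial list that did not choose the cells (y axis), with 1 symbol for each of the 4 libraries. The dotted line marks 2-fold, which *Dll4*, *Cxcl12*, and *Tm4sf1* did not pass in every library.

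Of 12 venous genes, 9 were 2-fold lower in arterial than in other ECs in all libraries (median −2.48). The other ECs include the venous-gene ECs, so that such ratios do not set arterial ECs apart from the remaining ECs, which have few arterial and few venous UMIs. *Selp*, encoding P-selectin of venular endothelium, had 2, 3, 1, and 19 UMIs in all arterial ECs of a library (1.55, 2.53, 0.532, and 12.6 CPM) against 115, 66.6, 66.8, and 289 CPM in other ECs. *Sele*, encoding E-selectin, was at 0, 3.37, 1.06, and 5.31 CPM against 49.1, 52, 37.7, and 93.9 CPM. *Icam1*, a ligand of leukocyte integrins, had 110, 102, 83.5, and 167 CPM against 345, 350, 283, and 449 CPM (−1.65 ± 0.16). *Vcam1*, the ligand of α4 integrins, was lower in all 4 libraries but not by 2-fold in each, with 424, 325, 362, and 331 CPM against 650, 496, 401, and 911 CPM (−0.71 ± 0.55), and after thinning before the cells were chosen its mean log2 ratio was 0.07. Against ECs that likewise had at most 1 venous UMI the direction was the opposite, since *Vcam1* was at 141, 97.7, 54.4, and 244 CPM in those with an arterial sum of 0 and at 285, 87.9, 24.9, and 117 CPM in those with a sum of 2. *Icam2*, a constitutive adhesion gene of endothelium, was slightly higher in arterial ECs of all 4 libraries (550, 463, 560, and 544 CPM against 369, 311, 382, and 361 CPM). Of the 11 leukocyte adhesion genes counted, the selectins and *Icam1* were the 3 past 2-fold, all lower. Against the remaining ECs alone, the summed adhesion list was higher in arterial ECs of all 4 libraries (2540, 2236, 2354, and 2602 CPM against 2135, 1806, 1790, and 2348 CPM), and it was 3012, 2881, 2794, and 3711 CPM in venous-gene ECs. *Mcam*, a junctional adhesion gene, lay at the other end with 1.08 ± 0.43.

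Of 14 inflammatory genes, 4 were 2-fold lower in all libraries and none higher (median −0.70). *Lcn2*, encoding an iron-siderophore–binding acute phase protein, had 196, 306, 361, and 2416 CPM in arterial ECs and 2298, 3379, 5524, and 6990 CPM in other ECs. *Lrg1*, a secreted modulator of TGF-beta signaling, had 234, 475, 176, and 1018 CPM against 1506, 2329, 1533, and 2836 CPM. Both were higher in arterial ECs of *EC-Ang2* than of any other library. The neutrophil chemokine *Cxcl1* (−2.60 ± 0.29) and *Tnfaip3*, an inhibitor of NF-κB signaling (−1.94 ± 0.51), were the other members. The inflammatory list summed to 2698, 3016, 2928, and 6396 CPM in arterial ECs, 3370, 4174, 4430, and 6224 CPM in the remaining ECs, and 9029, 12616, 15830, and 18296 CPM in venous-gene ECs. The difference from other ECs was thus mainly one from venous-gene ECs, and in *EC-Ang2* the arterial sum was above that of the remaining ECs.

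None of 17 blood-brain barrier and transport genes passed 2-fold against other ECs in every library (median 0.16). Against the remaining ECs alone, their sum was lower in arterial ECs of all 4 libraries (12834, 12625, 14998, and 10778 CPM against 17364, 16523, 20396, and 13375 CPM). The glucose transporter *Slc2a1* had 3379, 3977, 4486, and 3213 CPM in arterial ECs against 2900, 3150, 4312, and 2457 CPM in all other ECs. No gene passed either among 14 MHC class I pathway genes (median 0.10), 6 MHC class II pathway genes (−0.30), or 13 dissociation and stress genes (−0.01). Of 17 interferon response genes, only the chemokine *Cxcl9* passed, lower (median 0.15). Capillary genes lay somewhat lower than in other ECs, with a median of −0.61 over 11 genes, of which *Car4*, a membrane carbonic anhydrase of capillaries, was the only 1 past the fold (−2.12 ± 0.55). Their sum was further below that of the remaining ECs in all 4 libraries (1873, 1811, 2286.5, and 967 CPM against 3404, 3325, 4172, and 1965 CPM). No arterial EC of any library had 3 or more of 12 cycling genes, which allows shares of up to 1.22%, 1.10%, 0.888%, and 1.38%. Of the remaining ECs, 3 of 1105, 0 of 1604, 2 of 1769, and 1 of 1018 did so, and of the venous-gene ECs 52 of 1483, 7 of 1520, 15 of 1361, and 50 of 1061. The absence of cycling cells was therefore not detectably particular to arterial ECs.

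Of 7 angiopoietin system genes counted, none was past 2-fold between arterial and other ECs in all 4 libraries. *Tek* had 276, 216, 212, and 165 CPM in arterial ECs against 182, 176, 160, and 108 CPM (mean log2 ratio 0.48 ± 0.15), and its relative *Tie1* was closer still (0.22 ± 0.04). *Angpt2* (chromosome 8, 18690263 to 18741562), the gene of Ang2, had log2 ratios of −1.47, −0.83, −0.08, and −1.09, so that it was more than 2-fold lower in arterial ECs of mIgG1 and *EC-Ang2* and hardly differed in Ctrl.

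Smooth muscle genes were also higher in arterial ECs. The 6 smooth muscle markers summed to 235, 174, 180, and 149 CPM in arterial ECs against 22.8, 44.6, 38.7, and 28.2 CPM in other ECs, *Mylk* was the most abundant, and *Cnn1* was at 0 in every library. Barcodes of at most 100 UMIs, taken as empty, had 115, 137, 103, and 112 CPM of them. Of the 5 counted, 4 were past 2-fold, namely *Mylk* (2.75 ± 0.47), *Myh11* (2.74 ± 1.16), *Acta2* (2.55 ± 1.09), and *Tpm2* (1.83 ± 0.72). After thinning, *Mylk* was present in 15.4%, 13.2%, 13.9%, and 12.0% of arterial ECs. *Acta2* was present in 2.85%, 1.10%, 2.07%, and 0.922%, *Myh11* in 1.22%, 0.733%, 0.592%, and 0.922%, and *Tpm2* in 1.63%, 1.10%, 0.592%, and 0.461%. The levels of *Acta2*, *Myh11*, and *Tpm2* thus rest on few cells. The mean sum was 75.6 CPM in cells with 3 arterial UMIs and 302 CPM in those with 10 or more, and the part of smooth muscle RNA in the results on wall genes was not tested. Pericyte markers summed to 462, 296, 328, and 259 CPM against 222, 265, 314, and 125 CPM, mostly *Rgs5*, and no defining marker of the list was at 0. Macrophage and microglia markers were at 1324, 1195, 621, and 508 CPM in arterial ECs and at 1781, 1466, 1049, and 1469 CPM in other ECs. If all UMIs of macrophage, microglia, and neutrophil markers in arterial ECs were free RNA from the suspension, free RNA would make up at most 7.06%, 9.33%, 4.02%, and 3.81% of their UMIs.

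Summed levels of genes that did not choose the cells differed between the classes of ECs. The 20 arterial genes summed to 11401 ± 1878 CPM in arterial ECs (SD, n = 4 libraries), 4934 ± 1460 CPM in ECs with both arterial and venous genes, 3746 ± 246 CPM in the remaining ECs, and 2393 ± 448 CPM in venous-gene ECs. The 12 venous genes summed to 2689 ± 1799, 11080 ± 3353, 4289 ± 1430, and 15506 ± 3523 CPM in these classes. On both lists, ECs with both kinds of genes lay nearer to venous-gene than to arterial ECs. They had median depths of 10082, 6775, 6746, and 12548 UMIs, above all other classes, and the doublet caller marked 3.00%, 9.59%, 12.3%, and 2.86% of them, compared with 0.407%, 2.56%, 1.48%, and 1.38% of arterial ECs.

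Among ECs with at most 1 venous UMI, other arterial genes increased gradually with the arterial sum and showed no step at the limit of 3. The 20 genes summed to a mean over libraries of 3138 CPM in barcodes with a sum of 0, 4733 with 1, 6740 with 2, 7837 with 3, 9609 with 4 to 5, 12389 with 6 to 9, and 16783 with 10 or more. *Mgp* went from 389 to 2750 and 8179 CPM at sums of 0, 3, and 10 or more. *Gja5* behaved differently, with 2.44 CPM at 3 UMIs, 12.0 CPM at 6 to 9, and 61.3 CPM at 10 or more, the last from 13, 10, 30, and 18 UMIs. Capillary genes declined over the same series, from 3395 CPM at 0 through 2202 CPM at 3 to 1023 CPM at 10 or more. *Vcam1* increased from 230 CPM at 3 to 704 ± 107 CPM at 10 or more. The arterial class therefore held a range of cells, and median UMIs also increased with the sum, for example from 4260 to 5635 in Ctrl. The group of 10 or more had 30, 27, 83, and 32 cells, in which the 20 genes summed to 11354, 19219, 18092, and 18468 CPM. In this and each other group of the arterial class, mIgG1 had the lowest sum.

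**Figure D3:**
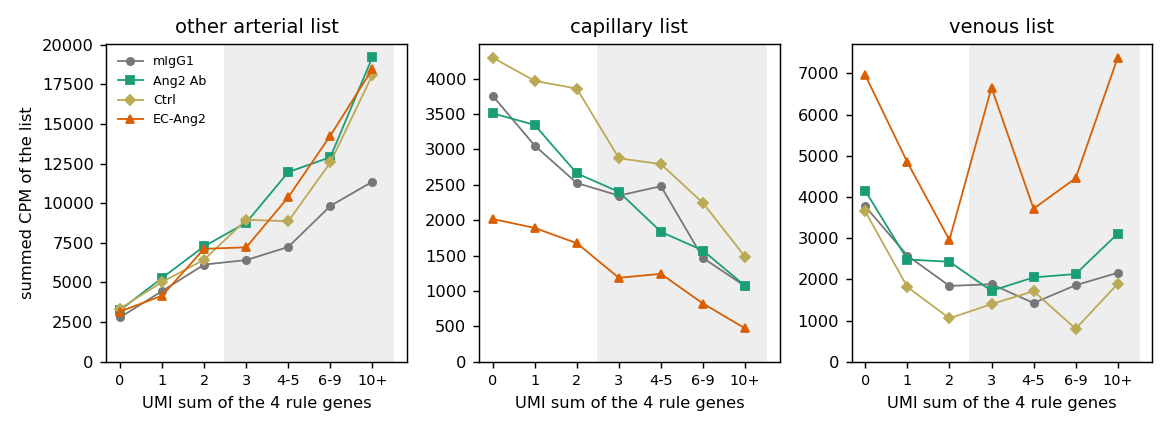
Summed CPM (y axis) of the 20 arterial genes that did not choose the cells, the 11 capillary genes, and the 12 venous genes, in ECs with at most 1 venous UMI grouped by their UMI sum of *Bmx*, *Sema3g*, *Gkn3*, and *Hey1* (x axis), with 1 line per library and the arterial class shaded. Arterial genes increase and capillary genes decline across the limit without a step.

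Arterial ECs with a *Gkn3* UMI had higher levels of the named wall genes than those without. *Gkn3* is itself part of the arterial sum, and wall genes increased with that sum. From a sum of 3 to 10 or more, the mean over libraries went from 62.0 to 353 CPM for *Eln* and from 72.1 to 458 CPM for *Fbln5*. The split by *Gkn3* is therefore not separate from that gradient and is given as a description. The 20 arterial genes summed to 9944 CPM with and 7520 CPM without *Gkn3* in mIgG1, 15678 and 10629 CPM in Ang2 Ab, 16068 and 8865 CPM in Ctrl, and 16367 and 10782 CPM in *EC-Ang2*. *Eln* was at 159 and 55.6, 277 and 161, 310 and 79.2, and 246 and 128 CPM, and *Fbln5* at 274 and 101, 423 and 197, 283 and 74.8, and 525 and 204 CPM. *Clu*, encoding the secreted chaperone clusterin, followed them with 392 and 139, 780 and 311, 859 and 229, and 710 and 359 CPM. *Cytl1* did so in 3 libraries (173 and 19.4, 235 and 42.2, and 225 and 1.08 CPM) but not in *EC-Ang2* (180 and 209 CPM). These *Cytl1* levels rest on few cells, since after thinning it was present in 4.61% of arterial ECs of *EC-Ang2*. *Vcam1* was higher with *Gkn3* in all 4 libraries, most in Ctrl (604 and 111 CPM). The *Gkn3*-positive cells numbered 110, 96, 165, and 50, and whether the libraries differ in cells of this kind or in the level of *Gkn3* was not tested. Smooth muscle markers summed to 242 and 229 CPM with and without *Gkn3* in mIgG1, 356 and 79.3 CPM in Ang2 Ab, 291 and 65.1 CPM in Ctrl, and 113 and 161 CPM in *EC-Ang2*. They were thus higher with *Gkn3* in 3 libraries and lower in *EC-Ang2*, and their part in the values of the wall genes was not tested.

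Ang2 blockade was compared over 5685 genes with at least 50 UMIs in arterial ECs of both libraries together and a UMI in 10% of the cells of 1 of them. At least 1.5-fold, 323 genes (5.68%) were higher and 235 (4.13%) lower in Ang2 Ab. With an interval that also left out 0, these were 220 (3.87%) and 166 (2.92%). In the more numerous other ECs, 90 of 5981 genes (1.5%) were higher and 89 (1.49%) lower. Of the genes called in arterial ECs, 60 of 323 and 33 of 235 were past the fold in the same direction in other ECs. The median log2 ratio of all genes was 0.01.

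The largest difference was in *Angpt2* itself, which had 24 UMIs in mIgG1 and 212 in Ang2 Ab arterial ECs, or 18.6 and 179 CPM. The log2 ratio was 3.27 (2.66 to 3.94), and 2.63 in other ECs. No other of the 7 angiopoietin system genes passed 1.5-fold, with *Tek* at 276 and 216 CPM (−0.35) and *Tie1* at 208 and 180 CPM (−0.21). The range over the remaining members was −0.20 to 0.49, the highest being *Foxo1*, a transcription factor that induces *Angpt2*. Other genes with large ratios were *Scgb3a1*, a secretoglobin (135 to 710 CPM, 2.39), *Slc10a6*, a steroid sulfate transporter (11.6 to 38.8 CPM, 1.74), *Igfbp6*, an IGF-binding protein (1.71), and *Gda*, guanine deaminase (1.68). *Ccl6* (2.19) and *Plac8* (1.66) were also among the 8 largest, but free RNA could account for 85.2% and 40.4% of the *Ccl6* UMIs and for all of those of *Plac8*. The remaining gene of the 8 was *Nab2*, a corepressor of EGR factors (12.4 to 38.0 CPM, 1.62).

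Of 18 arterial genes counted, 6 were higher and 1, *Gja4*, was lower after blockade (median 0.39, and 0.31 in other ECs). Without regard to the fold, 11 were above 0 and 7 below, the latter including *Stmn2* (−0.55), *Unc5b* (−0.49), and *Vegfc* (−0.43). The wall matrix list, which shares members with the arterial list, had no common direction. Of its 12 genes, 4 were higher and 2 lower (*Hspg2* at −0.67 and *Lama5* at −0.65), with a median of 0.10 (0.11 in other ECs). *Mgp* went from 2696 to 5457 CPM (1.02, interval 0.96 to 1.08) and *Eln* from 101 to 201 CPM (0.99, 0.67 to 1.31). *Ltbp4*, a latent TGF-beta–binding protein of elastic fibers, went from 223 to 380 CPM (0.77), *Clu* from 251 to 471 CPM (0.91), and *Fbln5* from 178 to 274 CPM (0.63). In other ECs the ratios of these 5 genes had the same sign, from 0.50 for *Clu* to 1.11 for *Eln*. *Dll4* had 61.8 and 125 CPM (1.01, 0.61 to 1.42), and *Notch1*, 1 of its receptors, 80.4 and 128 CPM (0.67), whereas the target *Hes1* had 580 and 601 CPM (0.05). *Gja4* was at 279 and 151 CPM (−0.89, −1.15 to −0.62). After thinning to 2000 UMIs before the cells were chosen, *Mgp* was at 0.76 and *Ltbp4* at 0.86, whereas *Dll4* was at 0.45, *Clu* at 0.35, *Fbln5* at 0.20, and *Gja4* at −0.56, which are under 1.5-fold, and the list median was 0.10. Of 13 dissociation and stress genes, which respond to tissue handling among others, 3 were past the fold in the same pair and 12 above 0 (median 0.21, and 0.37 in other ECs), and the list sums of control and treated cells were 15952 and 20395 CPM. Their part in the results was not tested.

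Of 13 MHC class I pathway genes, 6 were 1.5-fold lower and none higher after blockade, and the other 7 were below 0 (median −0.57, and −0.61 in other ECs). *B2m*, the light chain of class I molecules, went from 5577 to 3606 CPM (−0.63, −0.68 to −0.57, and −0.57 after thinning), *Psmb9*, an immunoproteasome subunit, from 190 to 109 CPM (−0.80), and *Tap1*, a peptide transporter, from 132 to 81.8 CPM (−0.69). *H2-Q6* (−1.15) and *H2-Q7* (−0.96) had the largest ratios, but these genes are near-identical copies among which reads are assigned with uncertainty. Of 15 interferon response genes, 6 were lower, a further 6 were below 0, and 3 were above 0 (median −0.43, and −0.55 in other ECs). Among the lower were the GTPase genes *Igtp* (318 to 180 CPM, −0.83), *Gbp3* (−0.75), *Gbp5* (−0.73), and *Irgm1* (−0.72). *Isg15*, a ubiquitin-like gene of type I interferon signaling, was at 489 and 537 CPM (0.13). Of the genes that the study selected on these same libraries in capillary-venous ECs, so that their direction is not independent evidence, 13 of 32 were lower (median −0.49, and −0.69 in other ECs). *Cd74*, the invariant chain of MHC class II, was at 419 and 275 CPM, all of which free RNA could account for.

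Of 11 inflammatory genes, 4 were higher and 1 lower after blockade, but 6 were below 0 (median −0.14, and −0.04 in other ECs). The higher genes were *Lrg1* at 234 and 475 CPM (1.02), *Lcn2* at 196 and 306 CPM (0.65), and *Socs3*, a feedback inhibitor of cytokine signaling, and the NF-κB subunit gene *Nfkb1*, each at 0.62. The lower gene was *Relb* (−0.79). *Lcn2* had a ratio of −0.20 after thinning. Of 8 adhesion genes, *Mcam* alone was past the fold (34.0 to 80.1 CPM, 1.24), and the other 7 were below 0 (list median −0.21, and −0.04 in other ECs). *Vcam1* was at 424 and 325 CPM (−0.38, −0.57 to −0.19), as in other ECs (−0.39), *Icam1* at −0.10, and *Icam2* at −0.25. The study called *Vcam1* and *Icam2* significantly lower in arterial ECs of these libraries, by testing the cells of its own clusters. Both ratios given here have that direction but stay under 1.5-fold. Of 11 capillary genes, 2 were higher, namely *Ivns1abp* (1.35) and the organic anion transporter gene *Slc22a8* (0.62), and 3 lower, namely the transferrin receptor gene *Tfrc* (−0.96), the cell cycle regulator *Rgcc* (−0.76), and *Car4* (−0.60). None of 15 barrier genes passed (median −0.17). The largest ratios below 0 were those of *Npnt*, a matrix ligand of integrin α8β1 (32.5 to 10.1 CPM, −1.68), *Tcf15* (−1.63), *Slc26a10* (−1.57), and *Fam110a* (−1.51). Among the 8 lowest, *Rasd1*, a glucocorticoid-induced RAS-like gene, rested on the most UMIs, with levels of 737 and 298 CPM (−1.31, −1.49 to −1.13) against −0.30 in other ECs.

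**Figure D4:**
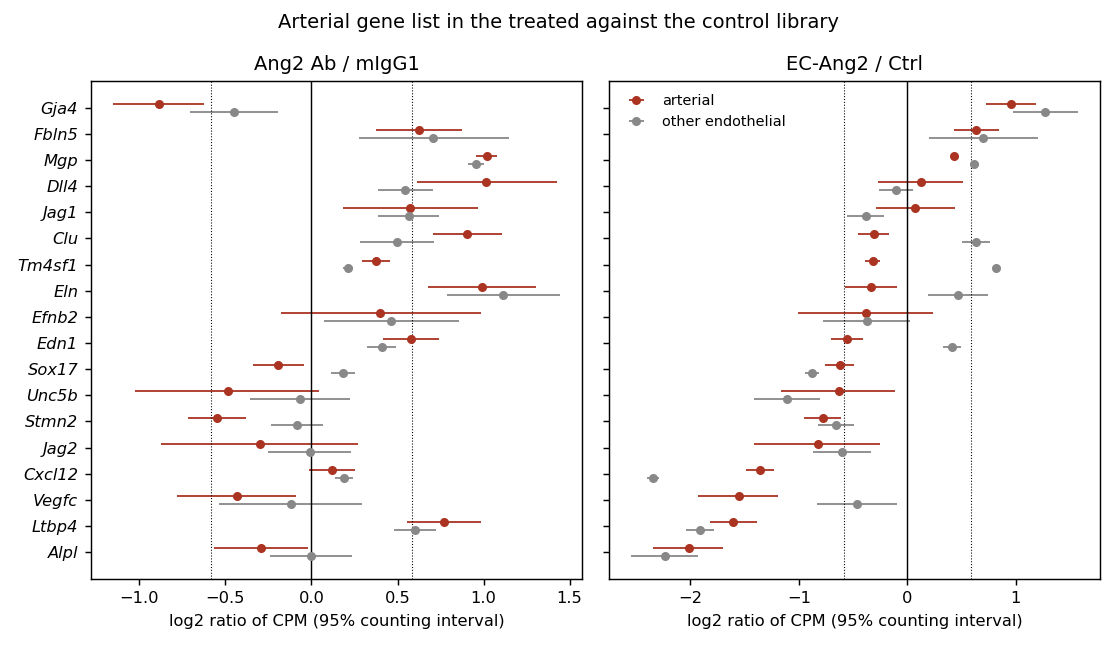
Log2 ratio of the CPM in the treated to that in the control library (x axis), for Ang2 Ab against mIgG1 (left) and *EC-Ang2* against Ctrl (right), of the arterial genes counted in both pairs (y axis), in arterial (red) and other ECs (gray); bars are 95% counting intervals and dotted lines mark 1.5-fold. *Mgp*, *Eln*, *Clu*, and *Dll4* lie right of the line on the left, and *Alpl*, *Ltbp4*, *Vegfc*, and *Cxcl12* left of it on the right.

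Ang2 overexpression was compared over 6533 genes, of which 412 (6.31%) were at least 1.5-fold higher and 498 (7.62%) lower in arterial ECs of *EC-Ang2* than of Ctrl. With an interval that also left out 0, these were 339 (5.19%) and 412 (6.31%). In other ECs, 396 of 6741 genes (5.87%) were higher and 404 (5.99%) lower. Of the genes called in arterial ECs, 154 of 412 and 217 of 498 were past the fold in the same direction in other ECs. The median log2 ratio of all genes was −0.02.

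Arterial ECs of Ctrl held 119 and those of *EC-Ang2* 803 UMIs of *Angpt2*, or 63.3 and 533 CPM, a log2 ratio of 3.07 (2.80 to 3.37), beside 66.9 and 1136 CPM in other ECs (4.09). Counts cannot tell transcripts of the transgene from those of the gene itself. *Tek* was at 212 and 165 CPM (−0.36) and *Itga5*, which encodes an integrin subunit that binds fibronectin, at 20.7 and 33.9 CPM (0.71, 0.08 to 1.35). The largest ratio of all belonged to *Car2*, a cytosolic carbonic anhydrase, with 57.4 CPM in Ctrl and 1143 CPM in *EC-Ang2* (4.31, 4.03 to 4.61). The uridine phosphorylase gene *Upp1* (33.0 to 245 CPM, 2.89), *Pdlim1*, a cytoskeletal adaptor (9.57 to 81.7 CPM, 3.09), and *Tmem45a* (2.93) followed. *Chil3* (4.07), *Ly6i* (2.94), and *Saa3* (2.92) were among the 8 largest as well, but free RNA could account for all of their UMIs in Ctrl and for 94.5%, 28.7%, and 46.3% in *EC-Ang2*.

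Capillary genes were lower and venous genes higher in arterial ECs of *EC-Ang2*. Of 11 capillary genes, 10 were at least 1.5-fold lower (median −1.17, and −1.60 in other ECs). *Slc22a8* went from 185 to 39.9 CPM (−2.21), *Mfsd2a*, a lipid transporter of the blood-brain barrier, from 266 to 74.4 CPM (−1.84), the cationic amino acid transporter gene *Slc7a1* from 215 to 62.4 CPM (−1.78), and the proteoglycan gene *Spock2* from 862 to 383 CPM (−1.17). Of 9 venous genes, 6 were higher and none lower (median 1.00, and 0.67 in other ECs). *Lcn2* had 361 and 2416 CPM (2.74, 2.62 to 2.86) and *Lrg1* 176 and 1018 CPM (2.54, 2.36 to 2.71), whereas in other ECs, which had more of both genes in each library, the ratios were 0.34 and 0.89. *Tmsb10*, an actin-binding thymosin, had 177 and 733 CPM (2.05), and *Vwf*, von Willebrand factor, 207 and 545 CPM (1.39, and 1.59 in other ECs). These genes were higher in cells that by choice had at most 1 UMI of *Ackr1* and *Slc38a5*. In *EC-Ang2*, 77 of 217 arterial ECs had that 1 venous UMI, compared with 62 of 338 in Ctrl. The cells of *EC-Ang2* were deeper, with a median of 6054 UMIs against 4747.5 in Ctrl. *Ackr1* and *Slc38a5* summed to 33.0 CPM in arterial ECs of Ctrl and 51.1 CPM in those of *EC-Ang2*. Empty barcodes of these libraries had 830 and 1703 CPM of them. The part of depth and free RNA in this difference was not tested. Of 13 dissociation and stress genes, none was past 1.5-fold in this pair and 10 were below 0 (median −0.25, and −0.25 in other ECs). They summed to 18850.5 CPM in arterial ECs of Ctrl and 15312.5 CPM in those of *EC-Ang2*, and their part in these results was not tested.

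Inflammatory genes were higher as a group, with 8 of 12 past 1.5-fold and none lower (median 0.75, and 0.51 in other ECs), *Lcn2* and *Lrg1* being on this list too. *Tnfaip3* was at 9.57 and 43.2 CPM (2.17, 1.40 to 3.01), and *Nfkbia*, encoding an NF-κB inhibitor, at 1559 and 1850 CPM (0.25). Of 8 adhesion genes, only *Icam1* passed, with 83.5 CPM in Ctrl and 167 CPM in *EC-Ang2* (1.00, 0.71 to 1.30). *Vcam1* was at 362 and 331 CPM in arterial ECs (−0.13, −0.30 to 0.04) and at 401 and 911 CPM in other ECs (1.18). The intervals of the 2 ratios for *Vcam1* did not overlap, but the difference between the classes was not tested and the cells differ in the genes that chose them. *Icam2* (−0.04), *Pecam1* (0.18), and *Jam2* (0.35) stayed within the fold.

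The median of MHC class I genes was near 0 in arterial ECs and higher in other ECs. Of 13 genes, 2 passed, *Tap1* (70.2 to 134 CPM, 0.93) and *H2-Q7* (0.66), with a median of 0.05 against 0.68 in other ECs, and *B2m* was at 5263 and 5431 CPM (0.05). Of 15 interferon response genes, 4 were higher, with *Gbp4* at 73.9 and 199 CPM (1.43), *Iigp1* at 105 and 273 CPM (1.38), *Gbp5* at 1.05, and *Gbp2* at 1.01 (median 0.14, and 0.71 in other ECs). Of the genes that the study selected on these libraries, 15 of 33 were higher (median 0.55, and 1.00 in other ECs). Among them *Ctla2a*, a cathepsin inhibitor, had 453 and 2295 CPM (2.34).

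Arterial genes fell on both sides of 1.5-fold. Of 19 counted, 2 were higher and 8 lower in *EC-Ang2* (median −0.38, and −0.37 in other ECs). *Gja4* had 136 and 263 CPM (0.96, 0.72 to 1.19), the opposite direction to Ang2 blockade, and *Fbln5* 181 and 281 CPM (0.64). The lower genes were *Alpl* (257 to 63.8 CPM, −2.01), *Ltbp4* (448 to 147 CPM, −1.60), *Vegfc* (154 to 52.5 CPM, −1.55), *Cxcl12* (1058 to 413 CPM, −1.36), *Jag2* (−0.82), *Stmn2* (−0.78), *Unc5b* (−0.63), and *Sox17* (−0.62). *Vegfc* stood at −0.46 in other ECs, and *Cxcl12* at −2.34. *Mgp* was within the fold (5112 to 6889 CPM, 0.43), and *Edn1*, *Eln*, *Clu*, and *Tm4sf1* had ratios between −0.55 and −0.31 in arterial ECs and between 0.41 and 0.82 in other ECs. The arterial sum differed between these libraries, since 83 of 338 cells in Ctrl and 32 of 217 in *EC-Ang2* had 10 or more. Ratios pooled over the class include this difference. The sum is made of the genes that chose the cells. *Gkn3* gave 1619 of its 3144 UMIs in Ctrl and 196 of 1344 in *EC-Ang2*. Groups of equal sum are therefore not matched between the libraries, and their values below are given as a description. In cells with a sum of 6 to 9, *Eln* was at 215 CPM in Ctrl and 264 CPM in *EC-Ang2* and *Clu* at 409 and 606 CPM, whereas with 10 or more *Eln* was at 394 and 196 CPM and *Clu* at 1077 and 689 CPM. *Mgp* was at 3183 and 5510 CPM with 4 to 5, 5347 and 8274 CPM with 6 to 9, and 8099 and 11956 CPM with 10 or more. Among tone and growth factor genes, *Ace*, angiotensin-converting enzyme, was higher (103 to 219 CPM, 1.08), *Klf2* lower (4234 to 2620 CPM, −0.69), and *Tgfb2*, a TGF-beta ligand, lower (139 to 48.5 CPM, −1.52).

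Of 13 wall matrix genes, 5 were higher with overexpression, among them the basement membrane genes *Nid1* (10.6 to 37.9 CPM, 1.83) and *Col4a2* (152 to 276 CPM, 0.86), and 2 lower, *Ltbp4* and *Fbln2* (95.7 to 39.2 CPM, −1.29). The median of this list was 0.37, and 0.42 in other ECs. Of 15 barrier and transport genes, 5 were lower and none higher (median −0.38, and −0.69 in other ECs), including *Itm2a* (3271 to 1466 CPM, −1.16), the thyroid hormone transporter gene *Slco1c1* (1066 to 543 CPM, −0.97), and the caveolin gene *Cav1* (−0.74). *Slc2a1* had 4486 and 3213 CPM (−0.48). Besides *Slc22a8*, the largest ratios below 0 were those of *Akr1c14*, a steroid reductase (70.2 to 8.63 CPM, −3.02), *Gm9946* (−3.12), and *Islr2* (37.2 to 6.64 CPM, −2.49). *Ly86* (−4.56), *Ccl12* (−3.09), *C1qc* (−2.67), and *C1qb* (−2.21) completed the 8, and free RNA could account for all of their UMIs in both libraries.

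**Figure D5:**
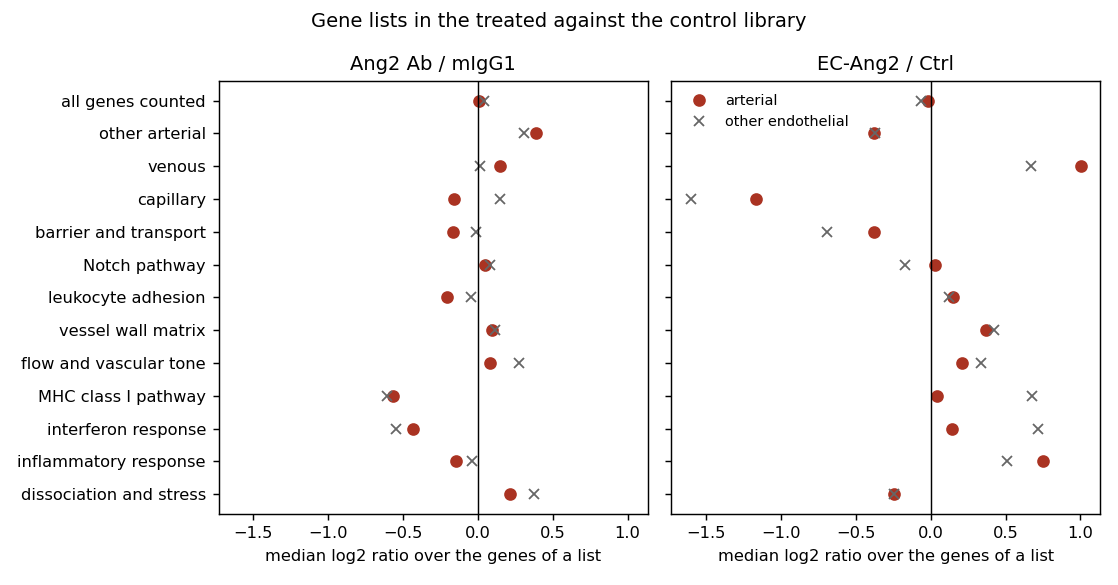
Median log2 ratio of the CPM in the treated to that in the control library (x axis) for gene lists (y axis), for Ang2 Ab against mIgG1 (left) and *EC-Ang2* against Ctrl (right), in arterial (red) and other ECs (gray). On the left MHC class I genes stand at −0.57 in arterial ECs, and on the right capillary genes at −1.17 and venous genes at 1.00.

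The pairs share no library, so that a gene's values in them can be set side by side, although strain, age, dpi, and pertussis toxin dose also differed between them. Over the 5617 genes counted in both, 45 were 1.5-fold higher in both (14.4% of the 312 higher after blockade and 14.9% of the 303 higher with overexpression), *Angpt2*, *Lrg1*, *Lcn2*, *Fbln5*, and *Ece1* among them. Over all 5617 genes, 5.55% were higher and 4.06% lower after blockade, and 5.39% were higher and 6.94% lower with overexpression. Every share given here lies above the matching share of all genes, also where the directions were opposite. Another 47 were lower in both (20.6% of 228 and 12.1% of 390), including *Rgcc*, *Tfrc*, *Tgfb2*, and *Npnt*. In opposite directions, 30 were lower after blockade and higher with overexpression (13.2% of 228 and 9.90% of 303), including *Gja4*, *Gbp4*, *Gbp5*, *H2-Q7*, *Tap1*, and *Ctla2a*. The 31 that were higher after blockade and lower with overexpression (9.94% of 312 and 7.95% of 390) included *Ltbp4* and *Slc22a8*.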

How the data were processed

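Unfiltered matrices of UMI counts per gene and barcode, 27998 genes by 737280 barcodes in each of 4 libraries, were used as deposited by the authors. The submitters' processing notes name Cell Ranger 2.1.1, Seurat 2.3.4, and mm10. Libraries held 66631583 (mIgG1), 57954609 (Ang2 Ab), 52084739 (Ctrl), and 52796061 (*EC-Ang2*) UMIs. Genes sharing a symbol were summed (56 symbols, leaving 27933).

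UMIs were summed over the arterial and over the other ECs of each library and divided by the class total. Log2 ratios between libraries carry exact binomial 95% intervals from the split of the counts, shares carry exact Clopper-Pearson intervals, and a count of 0 was replaced by 3 counts as a bound. Genes entered a comparison with at least 50 UMIs over both sides (between libraries also with a UMI in 10% of arterial ECs of 1 library), without the genes that chose the cells. The free RNA percentage of a gene is the upper share of its arterial UMIs that barcodes of at most 100 UMIs could give, scaled by leukocyte marker counts. Doublets were ranked with Scrublet in Scanpy 1.11.5 (0.8% per 1000 barcodes), kept in the results, and removed in an alternative. Python 3.11.15, numpy 2.4.6, scipy 1.17.1, and pandas 2.3.3 were used, and scripts were tested on simulated counts. Coordinates are from GENCODE for GRCm38.

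Named genes were the 4 arterial genes of the limits, the counted members of the arterial, angiopoietin, and adhesion lists, up to 4 members past the fold and the most abundant member of each other list, and the 8 largest ratios in each direction. Members and lists were chosen with earlier results of these data known. With 1 library per condition no test was run.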

Additional observations from a re-analysis of the deposited data

Results flagged for a closer look

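*Ptgis*, the gene of prostacyclin synthase, went in opposite directions in arterial and other ECs after Ang2 blockade. Its log2 ratio of Ang2 Ab to mIgG1 was 0.68 (interval 0.11 to 1.26) in arterial ECs, from 45 and 66 UMIs, and −0.91 in other ECs. The difference was not tested, and in barcodes thinned to 2000 UMIs the arterial ratio was −1.27.

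Barcodes of 1000 to 1999 UMIs, below the depth limit, also held cells that met all other arterial limits. They numbered 10, 15, 5, and 4 of 321, 753, 248, and 198 endothelial barcodes of that depth in mIgG1, Ang2 Ab, Ctrl, and *EC-Ang2*. The 20 arterial genes that did not choose the cells summed to 10185, 9835, 24493, and 7083 CPM in them and to 3345, 3329, 3585, and 3157 CPM in the other endothelial barcodes of the same depth.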

How the results depend on the processing

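The arterial share was 13.0%, 11.8%, 14.7%, and 13.4% of ECs in mIgG1, Ang2 Ab, Ctrl, and *EC-Ang2* with at least 2 arterial UMIs and 4.40%, 3.78%, 5.58%, and 4.46% with at least 5, and 4.05%, 4.22%, 4.75%, and 3.72% after thinning to 2000 UMIs. Genes higher and lower in arterial than in other ECs numbered 138 and 66 after thinning, 173 and 86 against other ECs matched on UMIs, and 543 and 280 at 1.5-fold. Leaving out 1 library gave 286 to 316 and 159 to 196. Genes higher and lower after blockade numbered 129 and 102 after thinning, and 764 and 691 at a natural log ratio of 0.25, and 210 were higher with at least 2 arterial UMIs. With overexpression they numbered 132 and 182 after thinning, and 947 and 1151 at a natural log ratio of 0.25. Thinning leaves fewer cells and UMIs, and a lower fold calls more genes by construction.

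Signs reversed in 9 values past the fold. After thinning, blockade gave −0.20 for *Lcn2*, −1.27 for *Ptgis*, −0.00959 for *Cd14*, 0.21 for *Vtn*, and 0.33 for the pericyte list median. With at least 5 arterial UMIs, overexpression gave 0.11 for the neutrophil list median and 0.030 for *S100a9*. With cycling cells removed, the cycling list median and *Ube2c* were both 0.64 in arterial against other ECs. The cause of these reversals was not tested. Subtracting free RNA, removing doublets, centering on the median ratio, equal numbers of arterial ECs (217), and the other filters on depth and counts moved no share and no count of genes by over 1.5 times. Over all alternatives, 359 values of named genes moved beyond their counting interval or the spread between libraries and 3450 stayed within it, as did 82 and 903 list medians. No paired analysis was possible because each condition has 1 library.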
